A study of Mus musculus with 207 samples.

Results

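The 7 genes described here encode receptors, G protein components and enzymes that tie gut hormones and fatty acids to cAMP in pancreatic beta cells, the islet cells that make insulin. They are Glp1r, Gipr, Ffar1, Adcy5, Adcy8, Rgs2 and Gnb5, chosen by name, and all 7 have a row among the 44448 rows of the expression table. The cells compared were old beta cells, 69 single cells from islets of male mice aged 26 months, and young beta cells, 138 single cells from islets of male mice aged 3 months. The labels name no strain, genotype, treatment or animal for any cell. Each age therefore counts as 1 sample, no difference between the ages could be tested, and every difference below is a size with no replicate check. Values are TPM, a unit scaled for transcript length and to a total of 1000000 in each cell, and each mean is over the cells of an age, with the SD among them.

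GLP-1 and GIP are incretins, hormones that the gut releases after a meal. Their receptors on beta cells, encoded by Glp1r and Gipr, act through the stimulatory G protein Gs on adenylyl cyclases, which make cAMP, and cAMP then strengthens glucose-driven insulin release through protein kinase A and Epac2. The receptor encoded by Ffar1, also called GPR40, binds long-chain fatty acids and acts mainly through Gq and phospholipase C. Adcy5 and Adcy8 encode membrane adenylyl cyclases. Rgs2 encodes a regulator that shortens G protein signals, above all those of Gq, and Gnb5 encodes an unusual G protein beta subunit that pairs with a subfamily of RGS proteins.

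Cells were labelled as beta cells and held a median of 51.7% of their TPM in Ins1 and Ins2 among old cells and 54.5% among young cells. Of 11 beta cell markers, 10 had a mean of 1 TPM or above, the level called measured here, and Mafa was near 0 at both ages (0.40 TPM in old cells and 0.024 TPM in young cells). The summed level of 10 alpha cell markers had a median of 934 TPM in old cells (range 8.88 to 7037 TPM) and 960 TPM in young cells (range 6.79 to 4342 TPM), of which Ttr made up most. Summed markers of pancreatic polypeptide cells had a median of 61.0 TPM in old cells (range 0.16 to 2123 TPM) and 26.2 TPM in young cells (range 1.53 to 950.4 TPM), with log2 ratios of 1.01 for Ppy and 1.94 for Pyy. Those of delta cells had a median of 190.2 TPM in old cells (range 6.19 to 2158 TPM) and 156 TPM in young cells (range 4.59 to 1486 TPM). Of 7 measured delta markers, Sst alone was at least 1.5-fold higher in old cells (log2 ratio 1.52). Another 2 were at least 1.5-fold lower, and the median log2 ratio was -0.38. Summed markers of ductal cells had a median of 119 TPM in old cells (range 0.43 to 6586 TPM) and 65.4 TPM in young cells (range 0 to 1586 TPM). Of 4 measured ductal markers, Spp1 alone was at least 1.5-fold higher in old cells (log2 ratio 2.74). Another 1 was at least 1.5-fold lower, and the median log2 ratio was 0.13. Summed markers of endothelial cells had a median of 0.10 TPM in old cells (range 0 to 738 TPM) and 0 in young cells (range 0 to 41.7 TPM), and those of acinar and of stellate cells had a median of 0 at both ages. The part of these markers in the results below was not tested. Another islet hormone (Gcg, Sst, Ppy or Pyy) stood at 1000 TPM or above in 7 old cells and 0 young cells, and without those 7 cells the log2 ratios given below were -1.24 for Glp1r, 0.37 for Gipr, -1.68 for Rgs2 and 2.48 for Gnb5. Genes at 1 TPM or above, called detected here, had a median of 4078 per old cell and 4291.5 per young cell. The cell numbers in the labels fall into 8 stretches that differ in detected genes and in mitochondrial ribosomal and transfer RNA, 4 in each age, and into a low and a high kind by that RNA, each of which holds both ages. The stretches were taken over from an earlier account of these data. The medians of detected genes were 4570.5, 3633.5, 3554 and 3776 in old cells 139 to 158, 159 to 190, 191 to 199 and 200 to 207, and 3944, 2320, 4226 and 5104.5 in young cells 1 to 39, 40 to 54, 55 to 86 and 87 to 138.

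With Ffar1 set aside, since its means rest on 1 cell at each age, the 3 members with the largest age differences were Gnb5, Rgs2 and Glp1r. A few cells weighed heavily in these too. At the age with the higher mean, the 5 highest cells held 77.7% of the old Gnb5, 62.5% of the young Rgs2 and 42.7% of the young Glp1r total. Stretches of 250 bases before the annotated start of these 3 are shown, and where transcription begins in these cells was not measured. They are RefSeq sequences of GRCm38.p6, read 5′ to 3′ on the strand of the gene, and capitals mark TGACG, the core of the cAMP response element, and the GC box GGGCGG on either strand. Positions are counted back from the start, with -1 the base just before it. Of the 7 members, 5 have an entry in that table.
Glp1r, chr17:30901617-30901866, plus strand: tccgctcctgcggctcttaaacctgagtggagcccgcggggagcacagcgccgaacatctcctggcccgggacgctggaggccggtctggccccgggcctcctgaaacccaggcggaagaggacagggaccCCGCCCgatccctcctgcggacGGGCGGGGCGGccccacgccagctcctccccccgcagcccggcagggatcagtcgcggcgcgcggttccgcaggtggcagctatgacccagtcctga
Rgs2, chr1:144004150-144004399, minus strand: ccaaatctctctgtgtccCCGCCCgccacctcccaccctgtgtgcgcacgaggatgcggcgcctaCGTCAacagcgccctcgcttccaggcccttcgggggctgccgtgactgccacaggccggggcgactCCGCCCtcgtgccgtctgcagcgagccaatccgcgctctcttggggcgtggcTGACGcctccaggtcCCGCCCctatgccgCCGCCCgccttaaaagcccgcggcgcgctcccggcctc
Gnb5, chr9:75306038-75306287, plus strand: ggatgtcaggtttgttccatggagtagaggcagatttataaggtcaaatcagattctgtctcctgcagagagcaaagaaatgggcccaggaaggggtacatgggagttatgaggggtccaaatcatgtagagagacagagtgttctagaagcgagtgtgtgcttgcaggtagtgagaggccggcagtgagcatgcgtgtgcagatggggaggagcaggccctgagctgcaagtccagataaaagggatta

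The windows before Glp1r and Rgs2 were rich in G and C, at 73.2% and 72.4%, and the window before Gnb5 had 50.8%, against a median of 52.4% over 32817 mouse windows of this length. Glp1r had 3 GC boxes, at positions -119, -97 and -92, the last pair overlapping. Rgs2 had 4 GC boxes, 2 copies of TGACG at positions -185 and -67, and 1 CCAAT box. Gnb5 had none of these motifs and 1 TATAAA, on the opposite strand, at position -216. TGACG was in 17.7% of all windows, GGGCGG in 32.7%, CCAAT in 33.8% and TATAAA in 12.4%, each counted on both strands, and TGANTCA, the AP-1 site, was in 6.75% of all windows and in none of these 3. A match describes the letters only.

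Of the 7 members, 5 were measured, and by mean TPM 3 of these 5 were at least 1.5-fold lower in old cells (Glp1r, Ffar1 and Rgs2), 1 was at least 1.5-fold higher (Gnb5) and Gipr lay between. Over all 12155 measured genes, 26.4% were at least 1.5-fold lower in old cells and 16.8% were at least 1.5-fold higher, and 5 genes are too few to set firmly against those shares. The median log2 ratio of old over young cells, taken on mean TPM + 1, was -0.10 over all measured genes. In both kinds of stretches taken alone, Glp1r, Ffar1 and Rgs2 were lower and Gnb5 was higher by 1.5-fold, as were 11.2% and 4.76% of all measured genes in those directions.

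**Figure D1:**
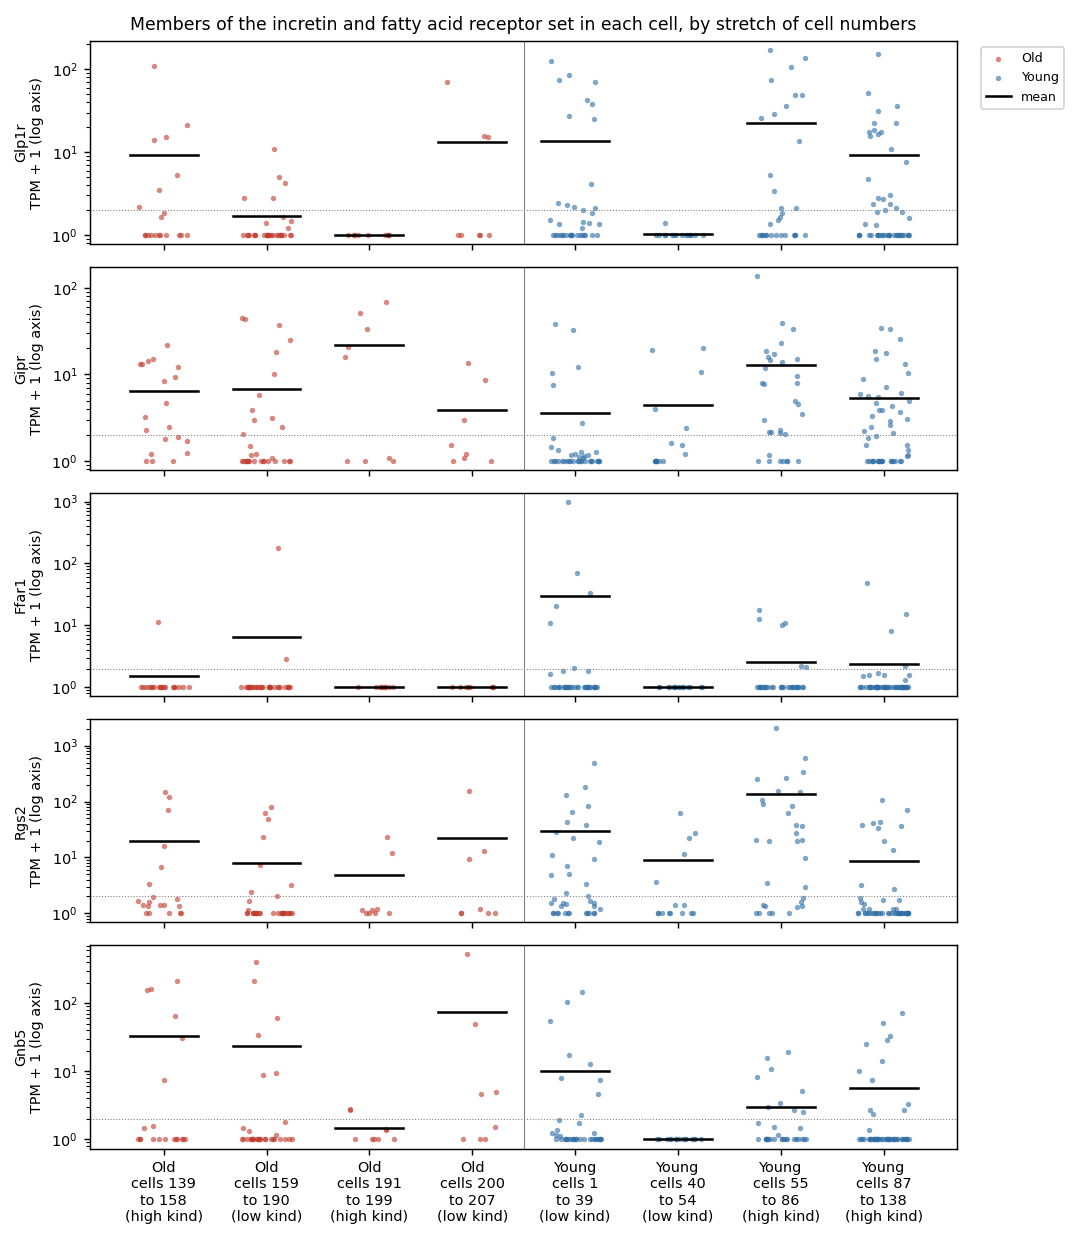
Level of the 5 measured members in each cell, as TPM + 1 on a log axis, by stretch of cell numbers with the 4 old stretches (red) left of the 4 young ones (blue). Each point is 1 cell, spread sideways at random, black bars are stretch means, and the dotted line is TPM 1. Most cells lie below the dotted line for every member, with single high cells far above it, as in Ffar1, where 1 young cell is at 981 TPM.

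Glp1r, the receptor gene for GLP-1, lies on chromosome 17 at 30901867 to 30936510 in GRCm38.p6. Its level spanned 0 to 108 TPM in old cells and 0 to 170 TPM in young cells, with a median of 0 at both ages, so the ages overlapped throughout the low range. It averaged 4.12 ± 15.6 TPM in old cells and 11.7 ± 29.7 TPM in young cells (SD, n = 69 and 138), a log2 ratio of -1.31. The lower mean went with fewer detected cells and with lower levels within them, which cannot be fully told apart where most values are 0. Glp1r was detected in 15 of 69 old cells (21.7%, exact 95% interval 12.7 to 33.3%) and in 48 of 138 young cells (34.8%, 26.9 to 43.4%), intervals that overlap and cover counting error only. Among cells with Glp1r the median was 9.91 TPM in old cells and 17.0 TPM in young cells. At 10 TPM or above stood 7 old cells and 30 young cells.

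The stretches of 1 age differed in Glp1r as much as the ages did. In old cells it averaged 8.24, 0.70, 0 and 12.2 TPM over the stretches 139 to 158, 159 to 190, 191 to 199 and 200 to 207, and it was detected in 7 of 20, 5 of 32, 0 of 9 and 3 of 8 cells. In young cells the means were 12.7, 0.026, 21.7 and 8.22 TPM over the stretches 1 to 39, 40 to 54, 55 to 86 and 87 to 138, with 14 of 39, 0 of 15, 14 of 32 and 20 of 52 cells. Each age thus had 1 stretch with no detected Glp1r, and those young cells also had the fewest detected genes. A count of 0 allows a share of up to 33.3% in the 9 old cells and up to 20.0% in the 15 young cells. Without old cells 159 to 190 the log2 ratio was -0.65, and within the low and the high kind it was -1.35 and -1.10.

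Detection of Glp1r also moved with the genes detected per cell. In cells with 1604 to 3817 detected genes it was found in 10.3% of old and 20.0% of young cells, in those with 3818 to 4555 in 28.6% of old and 41.7% of young cells, and in those with 4586 to 6654 in 31.6% of old and 40.0% of young cells. The share was lower in old cells in each of these classes, with intervals that overlapped in each.

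Gipr, the receptor gene for GIP, lies on chromosome 7 at 19156063 to 19170248. Its level spanned 0 to 68.2 TPM in old cells with a median of 0.69 TPM, and 0 to 135 TPM in young cells with a median of 0.48 TPM. The means were 7.35 ± 13.7 TPM in old cells and 5.48 ± 13.9 TPM in young cells (SD, n = 69 and 138), a log2 ratio of 0.37, inside the 1.5-fold bounds. It was detected in 32 of 69 old cells (46.4%, 34.3 to 58.8%) and in 62 of 138 young cells (44.9%, 36.5 to 53.6%). Over all cells of each age, Gipr was thus found in more cells than Glp1r. Its mean was the higher of the pair in old cells and the lower in young cells. These orders did not hold in every stretch. In young cells 1 to 39, Glp1r was found in 14 of 39 cells and Gipr in 6. The Glp1r mean was the higher in old cells 139 to 158 (8.24 against 5.52 TPM) and 200 to 207 (12.2 against 2.89 TPM). The Gipr mean was the higher in old cells 159 to 190 and 191 to 199, and in young cells 40 to 54.

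The stretches again differed more than the ages. Old cells 191 to 199, in which no Glp1r was detected, had the highest stretch mean of Gipr, 20.6 TPM, with 5 of 9 cells. The other old stretches averaged 5.52, 5.87 and 2.89 TPM in cell order. In young cells Gipr was found in 24 of 32 cells of the stretch 55 to 86 (75.0%) and in 6 of 39 cells of the stretch 1 to 39 (15.4%). Without young cells 55 to 86 the log2 ratio was 0.86, and without old cells 191 to 199 it was -0.03. Within the low and the high kind it was 0.71 and 0.45.

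**Figure D2:**
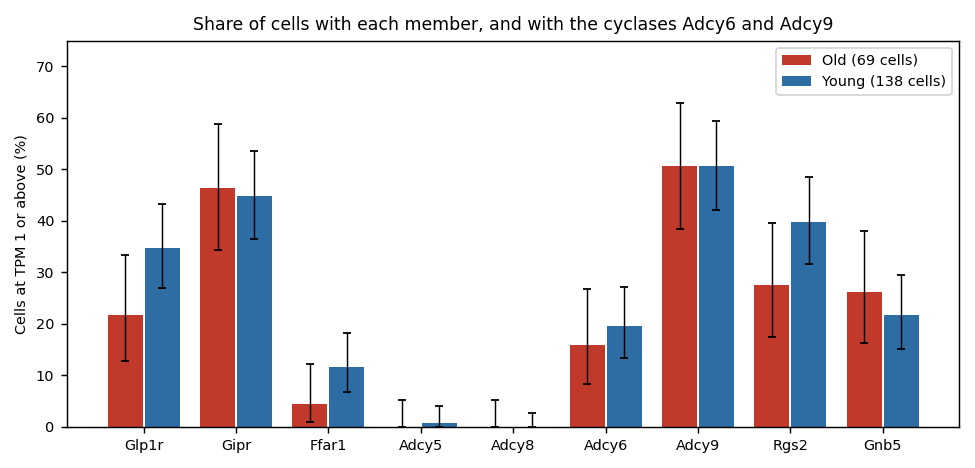
Share of cells with each gene at TPM 1 or above, in percent, with old cells (red) left of young cells (blue) and exact 95% intervals that cover counting error only. The intervals of the ages overlap for every gene shown, Gipr and Adcy9 are found in about equal shares of both ages, and Adcy5 and Adcy8 are at or near 0.

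At a detection level of 1 TPM, the incretin receptors were found together in single cells about as often as their separate shares would give. Glp1r and Gipr were detected together in 7 of 69 old cells (10.1%) and 22 of 138 young cells (15.9%). The product of the shares within each stretch gives 7.2 old and 23.0 young cells. At least 1 of the receptors was found in 40 old cells (58.0%, 45.5 to 69.8%) and in 88 young cells (63.8%, 55.2 to 71.8%). Gipr without Glp1r marked 25 old cells (36.2%) and 40 young cells (29.0%), and Glp1r without Gipr marked 8 old cells (11.6%) and 26 young cells (18.8%). At 1 TPM, all 15 pairs of the 5 members and Gcgr, the glucagon receptor gene, were counted. Gipr and Gcgr had the largest gap above the product, with 36 cells over both ages against 27.4 (8 old cells against 6.23, and 28 young cells against 21.2). The largest gaps below it were those of Rgs2 and Gcgr, with 17 cells against 22.4, and of Glp1r and Gnb5, with 11 against 16.3. These counts depend on the detection level: cells of both ages with Glp1r and Gipr together numbered 53 above 0 TPM, 29 at 1 TPM, 11 at 5 TPM and 6 at 10 TPM.

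Ffar1, the fatty acid receptor gene, lies on chromosome 7 at 30860568 to 30861470, a span of 903 bases. It was detected in 3 of 69 old cells (4.35%, 0.91 to 12.2%) and in 16 of 138 young cells (11.6%, 6.77 to 18.1%). The 3 old cells were at 1.87, 10.5 and 176 TPM. The 16 young cells had a median of 10.8 TPM and the highest were at 981 and 70.4 TPM. The means, 2.73 ± 21.2 TPM in old cells and 8.98 ± 83.8 TPM in young cells (SD, n = 69 and 138), rest on 1 cell at each age, which held 93.5% of the old total and 79.2% of the young total. The log2 ratio of -1.42 became 0.74 without young cells 1 to 39, the stretch that holds the highest young cell, and was -2.96 without old cells 159 to 190, the stretch that holds the highest old cell. Ffar1 was above 0 but below 1 TPM in 9 further young cells and in 0 old cells.

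The cyclase genes named for beta cell cAMP synthesis were hardly present in the table. Adcy8, on chromosome 15 at 64699035 to 64922296, was listed at 0 in all 207 cells. Adcy5, on chromosome 16 at 35154494 to 35305743, was listed at 0 in all 69 old cells and in 137 of 138 young cells. The 1 young cell with Adcy5 was at 25.2 TPM and is cell 28, which also had the highest Ffar1. A count of 0 allows a share of cells of up to 4.35% among old and 2.17% among young cells, and a value of 0 in such a table can also be a failed estimate.

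The cAMP-making enzyme most often found was Adcy9, detected in 50.7% of cells at both ages (35 of 69 old and 70 of 138 young cells). It averaged 10.9 ± 22.6 TPM in old cells and 14.5 ± 38.8 TPM in young cells (SD, n = 69 and 138), a log2 ratio of -0.39 that changed sign between the low and the high kind (-0.99 and 0.21). Adcy6 averaged 1.70 ± 6.99 TPM in old cells and 2.08 ± 7.99 TPM in young cells (SD, n = 69 and 138). It was found in 11 old cells (15.9%) and 27 young cells (19.6%). Of the 10 adenylyl cyclase genes, Adcy1, Adcy2, Adcy4 and Adcy8 were at 0 in every cell, and Adcy6 and Adcy9 were the measured ones. Any cyclase was detected in 39 old cells (56.5%, 44.0 to 68.4%) and 82 young cells (59.4%, 50.7 to 67.7%). An incretin receptor and a cyclase were found together in 22 old cells (31.9%, 21.2 to 44.2%) and 57 young cells (41.3%, 33.0 to 50.0%).

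Rgs2, on chromosome 1 at 143999338 to 144004149, spanned 0 to 151 TPM in old cells with a median of 0, and 0 to 2059 TPM in young cells with a median of 0.41 TPM. Its means were 11.5 ± 31.9 TPM in old cells and 43.4 ± 191 TPM in young cells (SD, n = 69 and 138), a log2 ratio of -1.83. It was detected in 19 of 69 old cells (27.5%, 17.5 to 39.6%) and 55 of 138 young cells (39.9%, 31.6 to 48.5%). The old range lay inside the young one, with 3 old and 12 young cells at 100 TPM or above.

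The difference in Rgs2 moved with 1 stretch and with a few cells. Its old stretch means were 18.3, 6.99, 3.75 and 21.5 TPM in cell order. The young ones were 29.0, 8.09, 135.6 and 7.72 TPM, with Rgs2 in 21 of 32 cells of the stretch 55 to 86 and in 11 of 52 cells of the stretch 87 to 138. Without young cells 55 to 86 the log2 ratio was -0.41. A list of 19 genes switched on by tissue dissociation, such as Fos and Jun, had a mean log2(TPM + 1) of 1.59 in old cells, 2.70 in young cells and 4.18 in young cells 55 to 86. The Spearman correlation of Rgs2 with that list was -0.18 over the 69 old cells and 0.30 over the 138 young cells. Within single stretches it lay between -0.25 and 0.28. The part of that list in the Rgs2 difference was not tested.

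Markers of macrophages, the scavenger cells that also live in islets, were high in 6 cells, each of which had Rgs2. Outside these cells the highest Rgs2 level was 604 TPM, in young cell 60 of the stretch 55 to 86, with a summed marker level of 2.44 TPM. The summed level of 10 such markers was 1000 TPM or above in 6 cells, 1 old and 5 young, at 18973 TPM in the old one and 7852 to 41357 TPM in the young ones. Its median was 1.27 TPM over all old cells (range 0 to 18973 TPM) and 2.93 TPM over all young cells (range 0 to 41357 TPM). All 6 cells had Rgs2, at 80.4 TPM in the old one and 60.2 to 2059 TPM in the young ones, and Ins1 and Ins2 made up 30.5% of TPM in the old one and 15.7 to 49.9% in the young ones. They held 10.1% of the old and 48.3% of the young Rgs2 total. Over the other cells Rgs2 averaged 10.5 ± 31.0 TPM in 68 old cells and 23.3 ± 70.9 TPM in 133 young cells, a log2 ratio of -1.08, with detection in 26.5% of these old and 37.6% of these young cells. Glp1r, Gipr and Ffar1 were at 1.60 TPM or below in all 6 cells. The part of these cells in the Rgs2 difference was not tested.

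**Figure D3:**
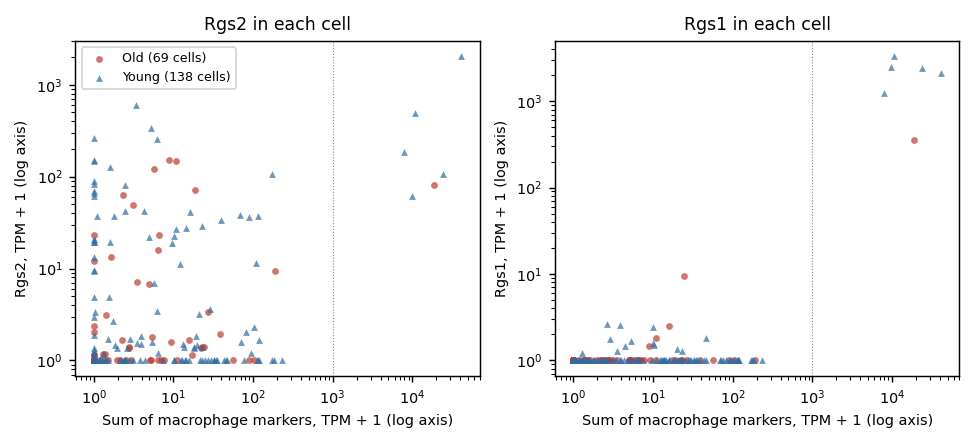
Rgs2 (left) and Rgs1 (right) in each cell against the summed level of 10 macrophage markers, both as TPM + 1 on log axes, with old cells as red circles and young cells as blue triangles. The dotted line marks 1000 TPM of the markers. Rgs1 is at 351 TPM in 1 old cell and above 1000 TPM in 5 young cells, all right of the line, whereas Rgs2 is found on both sides of it.

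Rgs1, a relative of Rgs2, is best known from blood cells. The 6 cells held 96.9% of its old and 99.9% of its young total. Its log2 ratio was -3.76 over all cells and 0.12 without the 6 cells. It was also detected in 2 of the other 68 old and 3 of the other 133 young cells, at up to 8.37 TPM in old and 1.66 TPM in young cells.

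Gnb5, on chromosome 9 at 75306288 to 75345923, was the member with a higher old mean beyond 1.5-fold. It spanned 0 to 524 TPM in old cells and 0 to 145 TPM in young cells, with a median of 0 at both ages. The means were 28.0 ± 88.2 TPM in old cells and 4.74 ± 17.7 TPM in young cells (SD, n = 69 and 138), a 5.91-fold ratio and a log2 ratio of 2.34. The share of cells differed little, with Gnb5 in 18 of 69 old cells (26.1%, 16.3 to 38.1%) and 30 of 138 young cells (21.7%, 15.2 to 29.6%). Among cells with Gnb5 detected the median was 40.6 TPM in old cells and 8.20 TPM in young cells. Share and level cannot be fully told apart where most values are 0. At 50 TPM or above stood 8 old and 5 young cells, and at 100 TPM or above 6 old and 2 young cells.

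The high Gnb5 cells came from 3 of the 4 old stretches. The old stretch means were 31.5, 22.5, 0.47 and 72.5 TPM in cell order, and the young ones were 8.99, 0, 1.99 and 4.62 TPM. The highest old cell, cell 202, had 524 TPM and held 27.1% of the old total, and it was also the old cell with the highest Rgs2. Without the highest cell of each age the log2 ratio was 2.20, and in the low and the high kind it was 2.16 and 2.31. Taken between the means of log2(TPM + 1), which weigh cells near 0 more, the difference was 0.62. Myo5c and Gm19531 overlap Gnb5 in the annotation, and each averaged below 0.1 TPM over all cells.

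**Figure D4:**
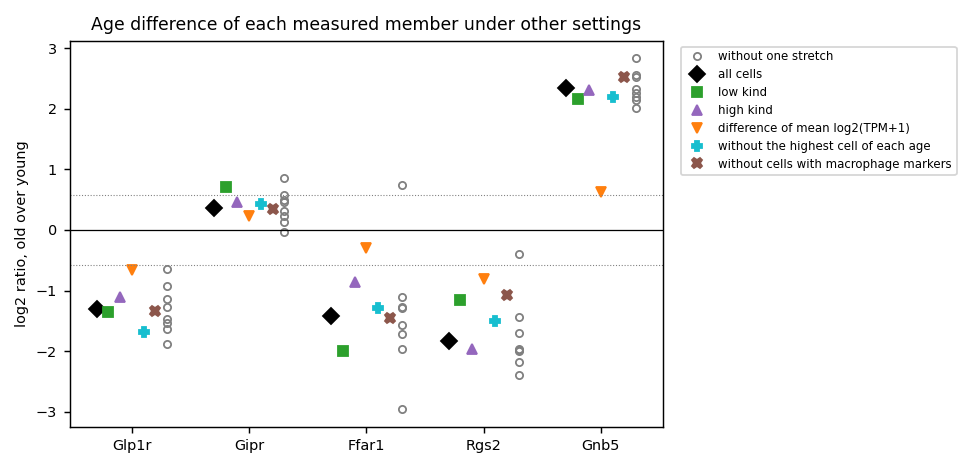
Log2 ratio of old over young cells for the 5 measured members over all cells (black diamonds) and under other settings, with 1 open circle for each of the 8 stretches left out. Dotted lines mark 1.5-fold. Glp1r stays below and Gnb5 above these lines under every setting shown, whereas Ffar1 turns to 0.74 and Rgs2 to -0.41 without 1 young stretch each.

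Of the RGS proteins known to pair with Gnb5, Rgs7, Rgs9 and Rgs11 were measured. Over all cells Rgs9 was the 1 with a higher old mean beyond 1.5-fold. Rgs11 averaged 27.9 TPM in old cells and 36.8 TPM in young cells, a log2 ratio of -0.39 with 0.20 in the low and -0.32 in the high kind. Rgs9 was at 7.16 TPM in old cells and 2.98 TPM in young cells, a log2 ratio of 1.03 with 1.52 in the low and 0.11 in the high kind. Rgs7 was at 3.07 TPM in old cells and 2.88 TPM in young cells (0.07), with 1.36 in the low and -0.56 in the high kind. It was detected in 21.7% of old and 10.1% of young cells. Rgs6 was at 0 in old cells and 0.00086 TPM in young cells. These 4 were named after their values were seen, as the known partners of Gnb5.

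The wider pathway was followed in 11 lists with 192 genes, of which 102 were measured. Of these, 39 were at least 1.5-fold lower in old cells (38.2%) and 13 were at least 1.5-fold higher (12.7%), beside 26.4% and 16.8% of all measured genes. Their median log2 ratio was -0.38, beside -0.10 over all measured genes. In both kinds of stretches alike, 25 of the 102 were lower and 2 were higher by 1.5-fold, beside 11.2% and 4.76% of all measured genes. Without the members, 36 of 97 were lower (37.1%) and 12 were higher (12.4%). Some of these calls rest on single cells, in both directions. Without the highest cell of each age, Gnat1 went from 2.03 to 0 and Ffar4 from -2.59 to -0.06.

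Other receptors that act through Gs were mostly at or near 0. Of 20 such genes 8 were measured, 3 of them lower (Glp1r, Gcgr and Gpr119) and 2 higher by 1.5-fold, with a median of -0.17. The 2 higher ones, Ptger4 and Gpr3, were each detected in 1 old cell. Without the highest cell of each age their log2 ratios were 0.003 and 0.015, and those of the 3 lower ones were -1.68, -1.63 and -0.81. Gcgr averaged 3.31 ± 10.6 TPM in old cells and 14.9 ± 73.2 TPM in young cells (SD, n = 69 and 138), a log2 ratio of -1.88, with detection in 13 old cells (18.8%) and 48 young cells (34.8%). It had -3.08 in the low and -0.51 in the high kind, and 1 young cell at 806 TPM held 39.2% of the young total, without which the young mean was 9.12 TPM. Gpr119, a receptor for fatty acid derivatives, averaged 4.84 ± 15.5 TPM in old cells and 18.3 ± 132 TPM in young cells (-1.72), but was found in 13.0% of old and 10.1% of young cells, and 1 young cell held 59.6% of the young total. Its log2 ratio was -3.41 in the low and -0.16 in the high kind. The PACAP receptor gene Adcyap1r1 and the bile acid receptor gene Gpbar1 were at 0 in every cell.

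Among receptors that act through Gq or bind fatty acids, 8 of 20 were measured, with 3 lower, 0 higher and a median of -0.48. Ffar2, a receptor gene for short-chain fatty acids, was the most abundant, at 17.4 ± 44.4 TPM in old cells and 19.6 ± 60.6 TPM in young cells (SD, n = 69 and 138), a log2 ratio of -0.16 with -0.87 in the low and 0.58 in the high kind. It was detected in 36 old cells (52.2%) and 55 young cells (39.9%). Ffar2 was therefore in more cells than Ffar1 at both ages.

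Of 21 receptors that act through Gi, which lowers cAMP, 4 were measured, with 2 lower, 0 higher and a median of -1.10. The galanin receptor gene Galr1 averaged 3.63 ± 9.60 TPM in old cells and 18.0 ± 56.7 TPM in young cells (SD, n = 69 and 138), a log2 ratio of -2.04 with -1.74 and -2.12 in the low and the high kind. The adrenergic receptor gene Adra2a (8.16 TPM in old and 12.7 TPM in young cells, -0.58) and the somatostatin receptor gene Sstr3 (8.68 TPM in old and 12.5 TPM in young cells, -0.48) each had opposite signs in the low and the high kind.

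**Figure D5:**
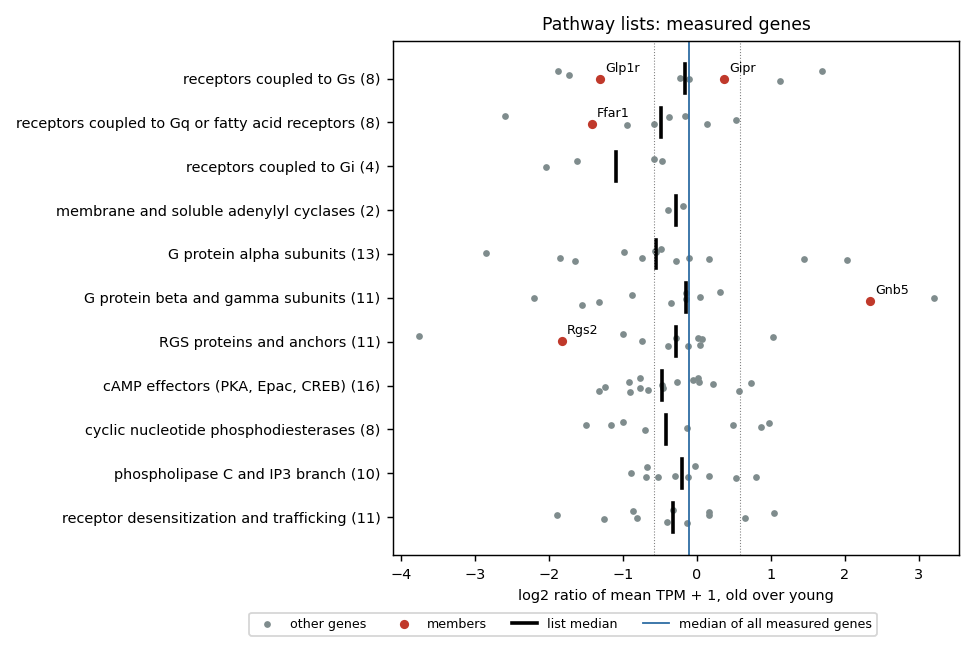
Log2 ratio of mean TPM + 1, old over young cells, for the measured genes of 11 pathway lists, with the number measured in brackets. Red points are the members, black bars list medians, the blue line the median of all measured genes (-0.10), and dotted lines 1.5-fold. List medians lie between -1.10 and -0.15, and each list with more than 4 measured genes holds genes on both sides of 0.

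G proteins themselves were among the best measured genes of the pathway. Gnas, which encodes the alpha subunit of Gs, was at 67.9 ± 68.2 TPM in old cells and 60.4 ± 53.8 TPM in young cells (SD, n = 69 and 138), a log2 ratio of 0.17, and was detected in 68 of 69 old and all 138 young cells. It had 0.29 in the low and -0.56 in the high kind. Of 13 measured alpha subunits 5 were lower and 2 higher, with a median of -0.56, and Gna13 (3.45 TPM in old and 15.0 TPM in young cells, -1.85) and the Gi subunit gene Gnai3 (14.0 TPM in old and 28.7 TPM in young cells, -0.98) were the lowest by the naming rule. Gna13 had -1.60 in the low and -1.90 in the high kind, and Gnai3 had -2.35 in the low and -0.07 in the high kind. Gnat2 was at 18.9 TPM in old and 23.2 TPM in young cells (-0.28), with opposite signs in the kinds. Of 11 measured beta and gamma subunits 4 were lower and 2 higher, with a median of -0.15. The common beta subunit gene Gnb1 was at 154 TPM in old and 149 TPM in young cells (0.05), more than any other beta subunit gene, and Gng10 (-1.55) and Gng5 (-0.88) were the lowest named gamma subunits.

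Downstream of cAMP, 16 of 17 effector genes were measured, with 7 lower, 1 higher and a median of -0.47. Prkar2b, a regulatory subunit gene of protein kinase A, was at 5.40 TPM in old and 14.1 TPM in young cells (-1.24), with -2.32 in the low and -0.11 in the high kind. Prkar1b, another such gene, was at 22.8 TPM in old and 15.1 TPM in young cells (0.56), with -0.35 and 1.53 in the low and the high kind. Rapgef4, which encodes Epac2, was at 8.13 TPM in old and 14.6 TPM in young cells (-0.77), with -1.13 and -0.41 in the low and the high kind. Creb1, a transcription factor gene of the cAMP response, was the 1 higher gene at 11.5 TPM in old and 6.52 TPM in young cells (0.74), with 0.38 in the low and 1.07 in the high kind. Epac1, encoded by Rapgef3, was at 0 in every cell.

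Enzymes that break down cyclic nucleotides had 8 measured genes of 18, with 4 lower, 2 higher and a median of -0.42. Pde3b averaged 8.64 TPM in old and 20.5 TPM in young cells (-1.16), with -2.43 in the low and -0.03 in the high kind. Pde4b averaged 5.39 TPM in old and 11.8 TPM in young cells, with a log2 ratio of 0.18 in the low and -2.96 in the high kind. These genes thus differed with age within 1 kind of stretch and hardly in the other. Pde5a was at 22.1 TPM in old and 15.5 TPM in young cells (0.48).

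The remaining lists held RGS proteins, the phospholipase C branch and receptor desensitization. Of 11 measured RGS genes and anchors 4 were lower and 1 higher, with a median of -0.28. Rgs4, the most abundant in old cells, was at 62.7 TPM in old and 62.2 TPM in young cells (0.01), but at 1.21 in the low and -4.78 in the high kind. The phospholipase C and IP3 branch, on which Ffar1 acts, had 3 lower and 1 higher of 10 measured genes, with a median of -0.21, and its most abundant gene Prkcb was at 0.16. Genes that desensitize or traffic receptors had 4 lower and 2 higher of 11, with a median of -0.33. Snx1, a sorting protein gene, was at 41.6 TPM in old and 19.7 TPM in young cells (1.04), with 0.40 in the low and 1.64 in the high kind. Atp6ap2 was at 296 TPM in old and 265 TPM in young cells (0.16), and Dpp4, which encodes the protease that inactivates incretins, was at 7.61 TPM in old and 10.4 TPM in young cells (-0.41).

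Genes whose levels ran most like those of Glp1r, Gipr and Rgs2, the members detected in at least 25% of all cells, were ranked over 3493 genes by the smaller of the Spearman correlations over the 69 old and the 138 young cells. For Gipr these were Nktr (0.31), Mob4 (0.29) and Tomm34 (0.29). For Glp1r they were Gsk3b (0.24), Tmed4 (0.24) and Dennd5a (0.23), and for Rgs2 Clk4 (0.25), Kpna3 (0.24) and Chga (0.23). After the mean of each stretch was subtracted, Nktr and Tomm34 remained among the 3 for Gipr and none of the 3 for Glp1r or Rgs2 did. Cells share a library kit and differ in detected genes, and correlations of this size in sparse values name no partner.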

How the data were processed

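Single cells were captured on a Fluidigm C1 chip, with SMARTer cDNA synthesis and Nextera XT libraries, per the labels' protocols. No molecular identifiers or strand handling are named there. The authors deposited 1 table of TPM values for 207 cells, in which each cell sums to 1000000, so read depth is unknown. The submitters' processing notes name the build GRCm38 (mm10) along with CASAVA 1.8.2 and FastQC. Which aligner, counting program and annotation were used is not given in the sources used here. Of 44448 rows named by NCBI Gene number, 39725 were matched to a symbol in the RefSeq table of GRCm38.p6, and 0 columns were left unused.

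Cells were grouped by their age label and none was left out. Age differences are log2 ratios of the old over the young mean after a pseudocount of 1 TPM was added to each, so those of low genes are understated. Measured genes had a mean of 1 TPM or above at either age. No test was made, since each age is 1 sample. Fewer cells with a gene and less RNA per cell cannot be told apart where most values are 0. The members, the lists and the stretches were chosen with earlier results of these data known. In each list the 2 highest and 2 lowest ratios among genes at 10 TPM or above, or the 2 most abundant genes, were named. Clopper-Pearson intervals cover counting error only, and a count of 0 was read as up to 3 cells. Doublets were not called, and 0 pairs of cells held identical values. The calculation of ratios was checked on data simulated from young cells, for genes with a young mean of 10 TPM or above. That check does not show how firm the ratio of a single sparse gene is. Alternatives changed the pseudocount, scaling, detection level and cells used. Python 3.11.15, numpy 2.4.6, pandas 2.3.3 and scipy 1.17.1 were used.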

Additional observations from a re-analysis of the deposited data

How the results depend on the processing

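Each measured member's log2 ratio was recomputed under 20 alternatives. Glp1r was at least 1.5-fold lower in old cells in all 20 (-1.88 to -0.62) and Gnb5 at least 1.5-fold higher in all 20 (0.62 to 2.83). Rgs2 was at least 1.5-fold lower in 19 (-2.40 to -0.41) and Ffar1 in 17 (-2.96 to 0.74), and Gipr lay between -0.03 and 0.86. Ffar1 was reversed at 0.74 without young cells 1 to 39. The cause was not tested. Of the members, 2 rather than 1 were at least 1.5-fold higher without young cells 1 to 39, without young cells 55 to 86, and in the low kind of stretches. The alternative without cells with macrophage markers was chosen after seeing the data. The median of all measured genes lay between -0.24 and 0.01 over the alternatives. Over all lists and alternatives 253 medians stayed within 1.5-fold and 11 did not. At other detection levels and cell choices 73 shares stayed within their intervals and 27 did not. At other detection levels 29 counts of cells with a pair of members moved beyond 1.5 times and 1 did not. No paired analysis was possible because the labels name no animals and cells carry only running numbers. Unknown depth limits every zero and low value, and 69 old cells limit the shares.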
